A study of Mus musculus with 17 samples.

Results

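The 49 genes described here encode cytosolic translation factors, poly(A)-binding proteins and regulators of mRNAs that carry a terminal oligopyrimidine (TOP) tract. They were taken from a list of gene symbols and matched to the Ensembl IDs of the count files. All 49 were found among the 55416 gene IDs counted in every library. No measured value entered the rule itself, but the list was chosen with earlier results of these data known.

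Initiation of translation begins when eIF2, kept active by its exchange factor eIF2B, brings initiator tRNA to the small ribosomal subunit. eIF1, eIF1A, eIF3 and eIF5 assist this subunit in finding the start codon, the eIF4 factors bind the mRNA cap and unwind the leader, and eIF5B joins the large subunit. The eEF1 and eEF2 factors then carry elongation, eRF1 (Etf1) and eRF3 (Gspt1) end it, and Abce1 splits the ribosome for reuse. Their mRNAs encode soluble proteins without a signal for the endoplasmic reticulum (ER), and several of them are TOP mRNAs, whose translation is set by mTOR and Larp1.

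The cells were Rpl31-FTA E14Tg2a.4 mouse embryonic stem cells (mESCs). Their Rpl31, a protein of the large ribosomal subunit, is fused to a FLAG-TEV-AviTag. ALIBi, a proximity biotinylation system delivered on transfected plasmids, labelled the tagged ribosomes at the ER, and polyA RNA was sequenced from the affinity-purified ribosomes (ER ribosome-bound RNA) and from the lysate that entered the purification (whole-cell RNA). The lysis buffer held cycloheximide, which halts elongating ribosomes. Cells received Nmd3 siRNA, Gnl3 siRNA or scramble siRNA. Nmd3 is the export adaptor of the large ribosomal subunit, and Gnl3 (nucleostemin) is a nucleolar GTPase. The comparisons used 3 ER ribosome-bound and 2 whole-cell libraries for Nmd3 siRNA, 3 and 2 for Gnl3 siRNA, and 2 and 3 for scramble siRNA. All groups share the tagged line and the ER-targeted labelling. Libraries from ribosomes labelled in the cytosol were not analysed here, so the comparison sets ER ribosomes against total polyA RNA and not against other ribosomes. The labels call the replicates biological and name no culture, so p-values measure the spread between these libraries.

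Library depth was 15198736 to 29904256 gene counts. The labels say that the submitters left out 2 whole-cell libraries, replicate 2 of Nmd3 siRNA and replicate 3 of Gnl3 siRNA, as outliers. In log2 CPM they correlated with the other 7 whole-cell libraries at 0.935 to 0.958, while those 7 correlated among themselves at 0.994 to 0.997. Both are left out below except where they are named. Replicate 2 of Nmd3 siRNA on ER ribosomes differed from replicates 1 and 3 with a chi-square per gene of 9.3 and 11, and whole-cell replicates 1 and 3 of Nmd3 siRNA differed at 9.36, while the other replicate pairs kept were at 2.1 to 4.09; results that turn on these libraries are given without them. Mitochondrially encoded RNA was 0.0204% to 0.0239% of counts on ER ribosomes and 1.15% to 2.03% in whole-cell RNA, and its part in the values below was not tested. All 10 stem cell markers were above 1 CPM (counts scaled to a fixed library total) in both fractions. Fibroblast or feeder markers summed to 34.1 to 41.1 CPM in ER ribosome-bound libraries and 14.6 to 20.3 CPM in whole-cell libraries, 3 of 8 of them at 1 CPM or more. The highest was Thy1, at means of 30.1 and 12.5 CPM, and the lowest Postn, at 0.012 and 0 CPM. Primitive endoderm markers summed to 7.92 to 9.67 and 10.2 to 12.4 CPM in the 2 fractions. Early differentiation markers summed to 44.4 to 60.7 and 43.6 to 57.4 CPM, with Otx2 the highest at means of 24.7 and 23.9 CPM. The siRNA targets were low where the labels say so. Nmd3 had 25, 24.3 and 25 CPM on ER ribosomes of Nmd3 siRNA cells, against 123.4 and 118.8 CPM in scramble siRNA cells. In whole-cell RNA it had 43.1 and 44.1 CPM, against 154.5, 155.6 and 151.9 CPM. Gnl3 had 31.1, 26.5 and 29.3 CPM on ER ribosomes of Gnl3 siRNA cells, against 169.5 and 175.7 CPM in scramble siRNA cells. In whole-cell RNA it had 71.2 and 55.1 CPM, against 274.6, 273.3 and 258.8 CPM. CPM values here and below are scaled by TMM factors, which correct for library composition. Libraries are bulk, so a smaller share of cells and less RNA per cell cannot be told apart, and every level is relative to the other RNA in its library.

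The mRNAs of the 49 genes spanned a wide range of levels. Per kilobase of transcript, in whole-cell RNA of scramble siRNA cells (n = 3), Eef1a1, which delivers aminoacyl-tRNA to the ribosome, was the highest at 6720 ± 205 CPM per kb (SD). Eef2, the translocase, followed at 1240 ± 22.6, with Eif4a1, the RNA helicase of the cap complex, at 1200 ± 15.4, Eif5a at 1190 ± 38.9 and Tpt1 at 1150 ± 54.2 CPM per kb. Neighbours among Eif4a1, Eif5a and Tpt1 differed by no more than the larger of their SDs. At the low end stood Eif4g3, a paralog of the scaffold Eif4g1, at 14.1 ± 1.15 CPM per kb, and Eef2k, the kinase that inhibits eEF2, at 4.08 ± 0.334 CPM per kb. The 12 subunits of eIF3 differed by 3.03-fold in whole-cell RNA, between Eif3k at 360 CPM per kb and Eif3f at 119 CPM per kb. On ER ribosomes of the same siRNA they differed by 12.6-fold, between Eif3k at 507 and Eif3a at 40.1 CPM per kb. Values per kb rest on the length of 1 annotated transcript per gene, that with the longest coding sequence. It was 2514 bases for Eif3f and 774 for Eif3k. Before division by length, Eif3f had 298.9 CPM and Eif3k 278.8 CPM in whole-cell RNA of scramble siRNA cells. Levels of genes with close copies can be too low, since reads that fit several places were not counted: 60.8% of the 100-base windows of the Eif4a1 transcript also occur in another annotated gene, as do 50.1% for Pabpc4, 49.4% for Eef1g, 39.3% for Tpt1, 35.3% for Eif2s3x and 26.7% for Eef1a1.

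The first comparison asks which of these mRNAs are represented on ER ribosomes above or below their share of whole-cell RNA. The group as a whole did not move one way: single factors rose or fell, and members of one complex parted. At an adjusted p under 0.05, 16 of 49 members were higher and 17 lower on ER ribosomes of Nmd3 siRNA cells, where 50.1% of all genes were called, 24.5% higher and 25.6% lower. In Gnl3 siRNA cells 13 were higher and 15 lower, where 48.1% of all genes were called, 23.3% higher and 24.9% lower. In scramble siRNA cells 18 were higher and 15 lower, where 50.3% of all genes were called, 25.1% higher and 25.3% lower. All changes are given as log2 fold changes of ER ribosome-bound over whole-cell RNA. The members' median was 0.00, -0.00 and 0.01 in that order, and the median of all 18271 genes was 0.01, 0.02 and 0.02. In all 3 siRNAs, 12 members were called higher and 14 were called lower, 11 members were called in none, and none was called in opposite directions. Over all genes, 18.1% were higher and 20.4% lower with all 3 siRNAs. The libraries of the fractions could lie apart without a call, as for Eif4ebp2 with each siRNA. The share of all genes without overlap was not counted.

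**Figure D1:**
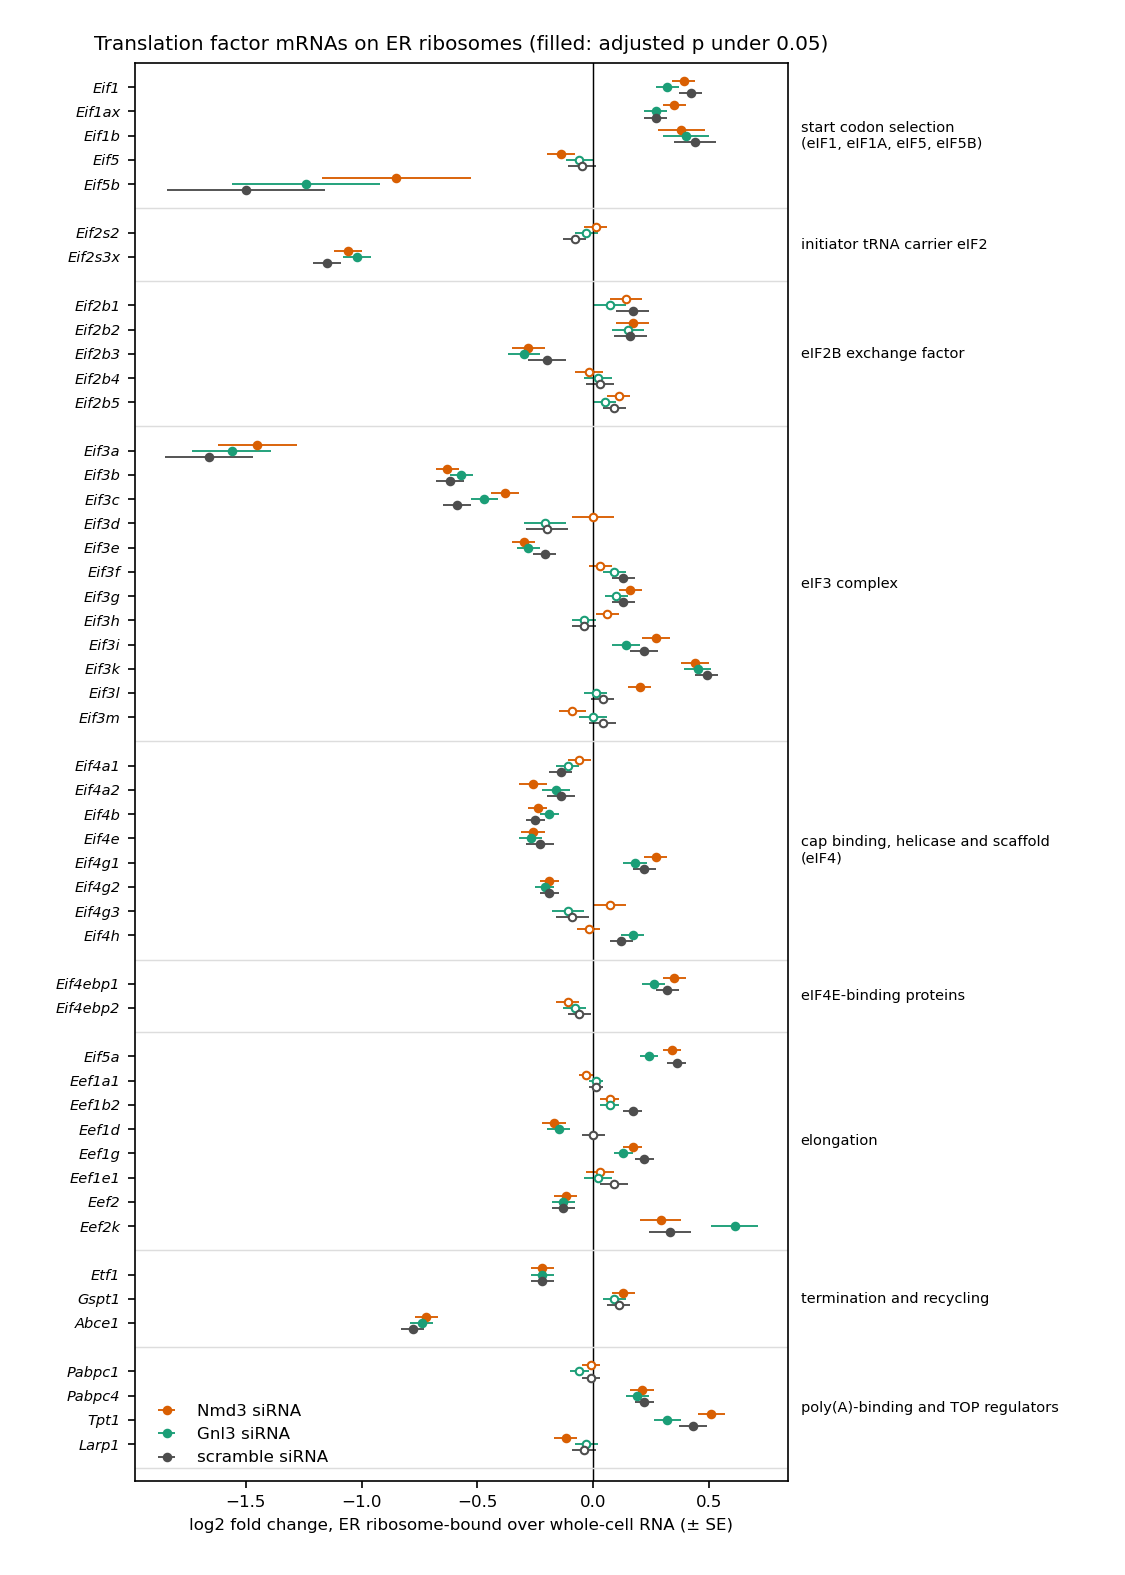
Log2 fold change of ER ribosome-bound over whole-cell RNA for the 49 members, grouped by role, with Nmd3, Gnl3 and scramble siRNA in orange, green and grey; bars are SE and filled points have an adjusted p under 0.05. Eif3a, Eif5b, Eif2s3x and Abce1 stand far to the left of 0, and no member stands above 0.61.

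The libraries left out bear on these counts. With all 17 libraries, 7 members were called in Nmd3 siRNA cells, 7 in Gnl3 siRNA cells and 6 in scramble siRNA cells, where 2819, 4540 and 2353 of 18525 genes were called. Eif2s3x, Eif3a, Eif5b and Abce1 were among them in each siRNA, lower on ER ribosomes. Eef2k in Gnl3 siRNA cells, at 0.70, was the only member then called higher. With Nmd3 siRNA the sign turned for 12 members called above, among them Eif1 (-0.26), Eif1ax (-0.30), Eif1b (-0.14), Eif3k (-0.18) and Tpt1 (-0.02), none of which passed the test in that fit, and the median of all genes was -0.11. No member was called higher with Nmd3 siRNA in that fit.

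Other settings moved calls near the threshold. Fitting only the groups compared left 25 of the 33 calls with Nmd3 siRNA, ending those of Eif2b2, Eif3g, Eif5, Eif5b (adjusted p 0.3), Eef1d, Eef2, Gspt1 and Larp1, and gave 32 calls with Gnl3 siRNA and 36 with scramble siRNA. DESeq2 gave 31, 27 and 29 calls with Nmd3, Gnl3 and scramble siRNA. It ended those of Eif2b2, Eif5 and Eef2 with Nmd3 siRNA, of Eif3i and Eef2 with Gnl3 siRNA, and of Eif2b1, Eif2b2, Eif3f, Eif3g and Eif4h with scramble siRNA. Without a filter on low counts each siRNA had 29 calls. This ended the same 5 with scramble siRNA, Eif3i with Gnl3 siRNA, and Eif2b2, Eif5b (adjusted p 0.0948), Gspt1 and Larp1 with Nmd3 siRNA. Size factors of DESeq2 type in edgeR ended Eif5b with Nmd3 siRNA (adjusted p 0.0517), Eif3i with Gnl3 siRNA, and Eif2b2, Eif3g and Eif4h with scramble siRNA. Library totals in place of TMM ended Eif5 with Nmd3 siRNA, Eif4a2, Eef1d and Eef2 with Gnl3 siRNA, and Eif4a2 with scramble siRNA.

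Among the factors of start codon selection, the small proteins were higher on ER ribosomes and eIF5B was lower. Eif1, which monitors start codon pairing, had 562.7, 518.9 and 546.9 CPM on ER ribosomes of Nmd3 siRNA cells, against 389.8 and 440.0 CPM in whole-cell RNA. Its ER ribosome-bound libraries of Gnl3 siRNA had 539.1, 543.6 and 543.5 CPM, against 446.8 and 422.3 CPM in whole-cell RNA. Scramble siRNA gave 583.9 and 569.9 CPM, against 418.0, 441.7 and 435.8 CPM. Every ER ribosome-bound library stood above every whole-cell library, and the log2 fold changes were 0.39, 0.32 and 0.42 (SE 0.05 each), with adjusted p of 6.03e-08, 2.29e-06 and 8.18e-09 for Nmd3, Gnl3 and scramble siRNA. Its paralog Eif1b had 31.3, 32.7 and 33.9 CPM on ER ribosomes of Nmd3 siRNA cells, against 21.6 and 28.5 CPM in whole-cell RNA. The values were 31.9, 35.6 and 35.0 CPM with Gnl3 siRNA, against 27.2 and 24.5 CPM, and 33.0 and 33.6 CPM with scramble siRNA, against 24.9, 24.4 and 24.2 CPM. It was higher at this lower level too, by 0.38, 0.40 and 0.44 (SE 0.10, 0.10 and 0.09; adjusted p 0.00112, 0.000527 and 0.000146), although without whole-cell replicate 1 of Nmd3 siRNA the adjusted p for that siRNA was 0.134. Eif1ax, which encodes eIF1A and works beside eIF1, had 230.3, 219.2 and 243.6 CPM on ER ribosomes of Nmd3 siRNA cells, against 178.0 and 183.7 CPM in whole-cell RNA. The values were 229.0, 240.0 and 233.4 CPM with Gnl3 siRNA, against 192.1 and 196.0 CPM, and 237.8 and 227.5 CPM with scramble siRNA, against 191.4, 200.9 and 188.3 CPM. The fractions did not overlap, and it was higher by 0.35, 0.27 and 0.27 (SE 0.05 each; adjusted p 1.06e-06, 6.96e-05 and 7.4e-05).

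Eif5b, the GTPase of subunit joining, had 93.6, 223.4 and 95.3 CPM on ER ribosomes of Nmd3 siRNA cells, against 245.6 and 251.3 CPM in whole-cell RNA. With Gnl3 siRNA it had 106.8, 90.3 and 114.0 CPM, against 245.3 and 243.1 CPM. With scramble siRNA it had 82.1 and 91.4 CPM, against 247.4, 240.7 and 247.6 CPM. Every ER ribosome-bound library was below every whole-cell library, and replicate 2 of Nmd3 siRNA stood apart from the other 7 ER ribosome-bound libraries. The log2 fold change was -0.85 (SE 0.32, adjusted p 0.0495) with Nmd3 siRNA, -1.24 (SE 0.32, adjusted p 0.00922) with Gnl3 siRNA and -1.50 (SE 0.34, adjusted p 0.00444) with scramble siRNA. Without that replicate 2 it was -1.39 (SE 0.07) with Nmd3 siRNA, at an adjusted p of 5.53e-19, while leaving out any other library of that siRNA gave adjusted p between 0.131 and 0.148. Eif5b shares 1643 exonic bases with Rev1 on the other strand, and since the strand setting of the counting is not given, reads of Rev1 may be among its counts. Eif5, which activates the GTPase of eIF2, had log2 fold changes of -0.14, -0.06 and -0.05 with Nmd3, Gnl3 and scramble siRNA. Its levels with Nmd3 siRNA were 366.6, 325.2 and 388.3 CPM on ER ribosomes, against 419.0 and 374.7 CPM in whole-cell RNA, and the fractions overlapped. Only that value passed the test (adjusted p 0.0389), and with the 2 fractions of each lysate paired it did not (adjusted p 0.345); it also did not without ER replicate 1 (0.0517), ER replicate 2 (0.275) or whole-cell replicate 1 (0.523).

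The 2 listed subunits of eIF2 differed. Eif2s3x, the tRNA-binding gamma subunit, had 92.7, 105.0 and 96.9 CPM on ER ribosomes of Nmd3 siRNA cells, against 202.6 and 206.2 CPM in whole-cell RNA. It had 102.7, 100.9 and 99.3 CPM with Gnl3 siRNA, against 212.9 and 196.9 CPM, and 97.7 and 89.3 CPM with scramble siRNA, against 204.2, 208.4 and 208.0 CPM. The fractions were far apart and each was tight. The log2 fold changes were -1.06, -1.02 and -1.15 (SE 0.06 each), with adjusted p of 2.09e-17, 5.13e-17 and 8.76e-18 for Nmd3, Gnl3 and scramble siRNA. Eif2s2, the beta subunit, had log2 fold changes of 0.01, -0.03 and -0.08 (SE 0.05 each) and passed the test with no siRNA.

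Of the 5 subunits of eIF2B, 1 was lower with every siRNA. Eif2b3, part of its catalytic subcomplex, had 78.5, 92.1 and 74.2 CPM on ER ribosomes of Nmd3 siRNA cells, against 102.6 and 96.0 CPM in whole-cell RNA. The values were 69.2, 75.7 and 72.5 CPM with Gnl3 siRNA, against 91.1 and 87.8 CPM, and 79.8 and 75.0 CPM with scramble siRNA, against 85.3, 96.4 and 85.4 CPM. The fractions did not overlap within any siRNA, and the changes were -0.28, -0.30 and -0.20 (SE 0.07, 0.07 and 0.08; adjusted p 0.00174, 0.000952 and 0.0247); the call ended without whole-cell replicate 1 of Nmd3 siRNA (0.0593), and without whole-cell replicate 2 (0.144) or ER replicate 3 (0.188) of scramble siRNA. Eif2b2, a regulatory subunit, had 66.7, 74.7 and 71.5 CPM on ER ribosomes with Nmd3 siRNA, against 60.5 and 65.7 CPM in whole-cell RNA, and 70.5 and 71.7 CPM with scramble siRNA, against 65.3, 64.2 and 61.2 CPM. It was higher with Nmd3 siRNA (0.17, adjusted p 0.0365) and scramble siRNA (0.16, adjusted p 0.0437). Eif2b1, another regulatory subunit, had 92.1 and 93.0 CPM on ER ribosomes with scramble siRNA, against 82.0, 82.6 and 81.8 CPM in whole-cell RNA, and was higher there (0.17, adjusted p 0.0279). With the lysates paired, the Nmd3 value of Eif2b2 had an adjusted p of 0.118 and Eif2b1 one of 0.057, and Eif2b2 with Gnl3 siRNA then passed (0.19, adjusted p 0.0202, against 0.15 and 0.076 unpaired). Leaving out single libraries ended these calls as well, with adjusted p up to 0.279: for Eif2b1 every scramble library but whole-cell replicate 2, for Eif2b2 every scramble library but whole-cell replicate 1, and whole-cell replicate 1 or ER replicate 2 or 3 of Nmd3 siRNA. Eif2b4 and Eif2b5 passed with no siRNA, between -0.02 and 0.11.

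The eIF3 complex, which holds the small subunit open for the mRNA, split. Its subunits Eif3a, Eif3b, Eif3c and Eif3e were lower on ER ribosomes with every siRNA, and Eif3i and Eif3k higher. Of 12 subunits, 4 were higher and 4 lower with Nmd3 siRNA, 2 and 4 with Gnl3 siRNA, and 4 and 4 with scramble siRNA. In that order these are 33.3% and 33.3%, 16.7% and 33.3%, and 33.3% and 33.3%. Over all genes, 24.5% were higher and 25.6% lower with Nmd3 siRNA, 23.3% and 24.9% with Gnl3 siRNA, and 25.1% and 25.3% with scramble siRNA. Calls both ways in a set of this size are thus not particular to the complex. Eif3a, the largest subunit and the scaffold of the complex, had 200.8, 327.6 and 205.7 CPM on ER ribosomes of Nmd3 siRNA cells, against 705.3 and 635.2 CPM in whole-cell RNA. With Gnl3 siRNA it had 212.5, 208.2 and 219.2 CPM, against 634.9 and 623.2 CPM, and with scramble siRNA 199.5 and 211.2 CPM, against 629.7, 644.1 and 668.1 CPM. Nmd3 siRNA replicate 2 was again the highest ER ribosome-bound library, and it was still below every whole-cell library. The log2 fold changes of Eif3a were -1.45 (SE 0.17), -1.56 (SE 0.17) and -1.66 (SE 0.19), with adjusted p of 5.78e-05, 3.65e-05 and 3.72e-05 for Nmd3, Gnl3 and scramble siRNA.

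Eif3b, an RNA-binding core subunit, had 399.5, 462.2 and 384.9 CPM on ER ribosomes of Nmd3 siRNA cells, against 654.3 and 631.2 CPM in whole-cell RNA. The values were 421.2, 402.9 and 408.3 CPM with Gnl3 siRNA, against 602.1 and 620.0 CPM, and 391.7 and 398.8 CPM with scramble siRNA, against 601.9, 620.6 and 603.8 CPM. It was lower, at -0.63, -0.57 and -0.62 (SE 0.05, 0.05 and 0.06; adjusted p 2.53e-12, 2.75e-11 and 6.64e-12) with Nmd3, Gnl3 and scramble siRNA. Eif3c, the core subunit that contacts eIF1 and eIF5, had 470.2, 568.9 and 493.6 CPM on ER ribosomes of Nmd3 siRNA cells, against 644.5 and 686.0 CPM in whole-cell RNA. The values were 468.6, 444.8 and 477.5 CPM with Gnl3 siRNA, against 638.6 and 642.9 CPM, and 432.8 and 450.2 CPM with scramble siRNA, against 674.6, 660.1 and 664.7 CPM. It was lower in every ER ribosome-bound library, at -0.38, -0.47 and -0.59 (SE 0.06 each; adjusted p 5.45e-07, 1.11e-08 and 9.26e-11). The call held for both with each library left out in turn. Eif3e, also known as Int6, an insertion site of mouse mammary tumour virus, had 307.9, 305.8 and 323.2 CPM on ER ribosomes of Nmd3 siRNA cells, against 376.1 and 394.3 CPM in whole-cell RNA. The values were 313.4, 307.5 and 323.4 CPM with Gnl3 siRNA, against 383.9 and 381.7 CPM, and 335.5 and 318.4 CPM with scramble siRNA, against 370.3, 400.9 and 361.4 CPM. Every ER ribosome-bound library was below every whole-cell library, at -0.30, -0.28 and -0.21 (SE 0.05 each; adjusted p 4.86e-06, 1.57e-05 and 0.000915).

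Eif3k, a small peripheral subunit, had 389.5, 404.7 and 377.8 CPM on ER ribosomes of Nmd3 siRNA cells, against 272.8 and 305.1 CPM in whole-cell RNA. The values were 375.2, 395.2 and 383.4 CPM with Gnl3 siRNA, against 276.6 and 286.8 CPM, and 389.5 and 395.0 CPM with scramble siRNA, against 278.9, 295.7 and 261.8 CPM. The log2 fold changes were 0.44, 0.45 and 0.49 (SE 0.06, 0.06 and 0.05; adjusted p 2.4e-08, 1.33e-08 and 9.8e-10) with Nmd3, Gnl3 and scramble siRNA. Eif3i, a small core subunit of WD repeats, had 246.6, 265.0 and 254.1 CPM on ER ribosomes of Nmd3 siRNA cells, against 195.8 and 226.2 CPM in whole-cell RNA. The values were 236.5, 257.2 and 255.5 CPM with Gnl3 siRNA, against 222.2 and 231.6 CPM, and 263.8 and 251.0 CPM with scramble siRNA, against 216.5, 222.8 and 222.7 CPM. It was higher by 0.27, 0.14 and 0.22 (SE 0.06 each; adjusted p 0.000126, 0.0452 and 0.00126). Its call with Gnl3 siRNA ended with the lysates paired (0.12, adjusted p 0.0848) and without any one of the 5 libraries except ER replicate 1, up to an adjusted p of 0.28, and its call with scramble siRNA ended without ER replicate 2 (0.0635). Eif3g, which binds RNA and eIF3 partners, passed with Nmd3 siRNA (0.16, adjusted p 0.00871) and scramble siRNA (0.13, adjusted p 0.0335), Eif3f with scramble siRNA (0.13, adjusted p 0.0227) and Eif3l with Nmd3 siRNA (0.20, adjusted p 0.00193). Eif3g had 225.8, 215.9 and 214.1 CPM on ER ribosomes with Nmd3 siRNA, against 192.4 and 198.8 CPM in whole-cell RNA, and 225.6 and 221.3 CPM with scramble siRNA, against 203.6, 210.0 and 199.8 CPM. Eif3f had 334.9 and 320.2 CPM with scramble siRNA, against 288.1, 308.5 and 300.1 CPM. Eif3l had 503.2, 526.5 and 503.7 CPM with Nmd3 siRNA, against 405.4 and 485.0 CPM. In each of these comparisons the ER ribosome-bound libraries were above the whole-cell libraries. With the lysates paired, Eif3g and Eif3f in scramble siRNA cells had adjusted p of 0.0667 and 0.106. Eif3g in Nmd3 siRNA cells (0.0623) and Eif3l (0.25) lost the call without whole-cell replicate 1. Eif3g and Eif3f in scramble siRNA cells lost it without either ER library and without whole-cell replicate 1 or 3. Eif3d, which can bind the cap itself, had 0.00, -0.21 and -0.20 (SE 0.09 each) and passed the test with no siRNA; with the lysates paired, the Gnl3 value (-0.21, adjusted p 0.0119) and the scramble value (-0.20, adjusted p 0.0153) passed. Eif3d overlaps Gm17638 on the other strand over 2151 bases. Eif3h and Eif3m passed with no siRNA.

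**Figure D2:**
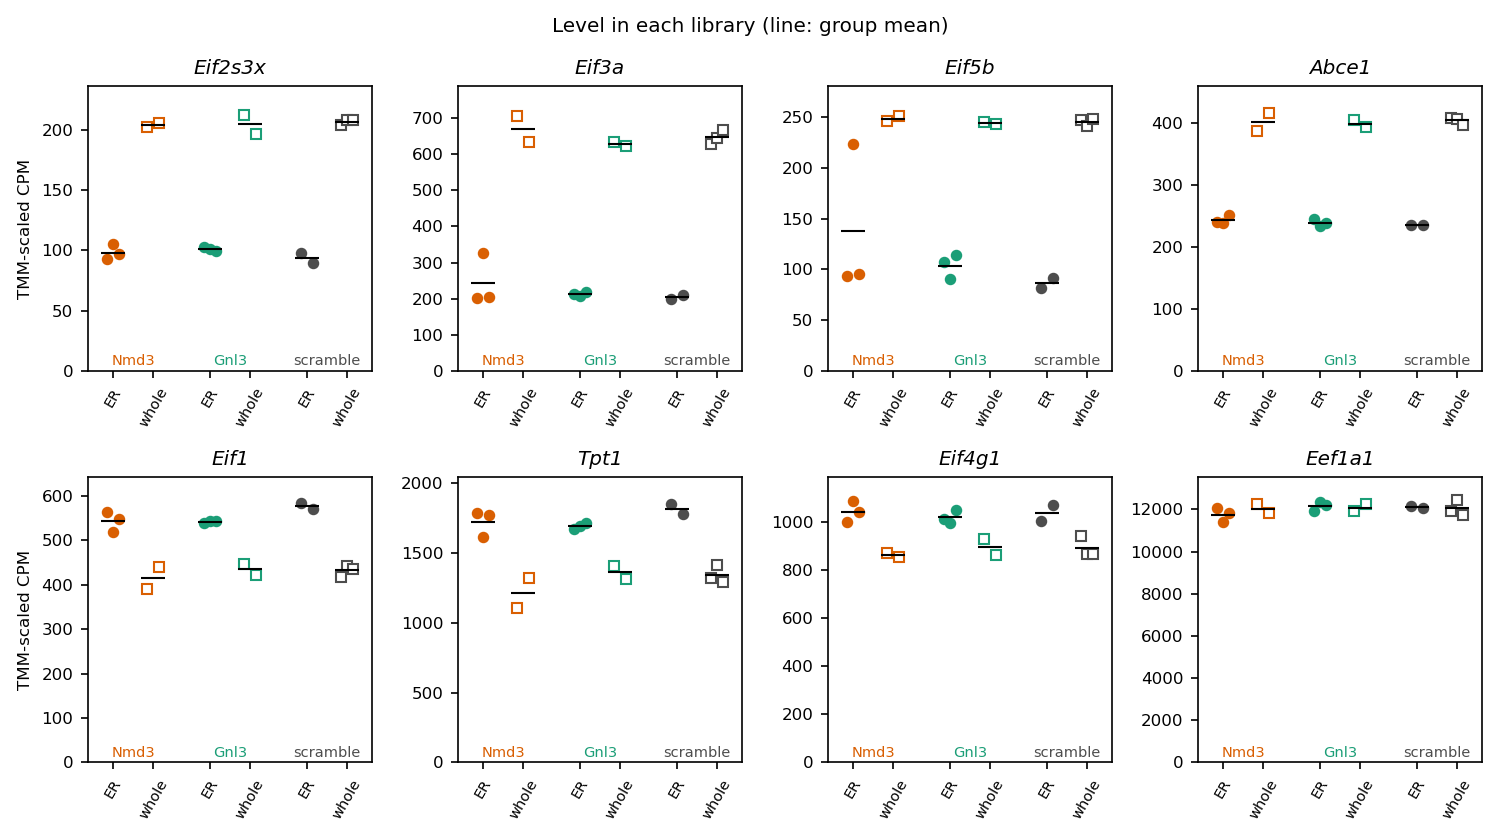
TMM-scaled CPM of 8 members in each of the 15 libraries, with ER ribosome-bound libraries as filled circles left of whole-cell libraries as open squares, in the order Nmd3, Gnl3 and scramble siRNA; lines are group means. Eif2s3x, Eif3a, Eif5b and Abce1 are low on ER ribosomes, Eif1, Tpt1 and Eif4g1 high, and Eef1a1 is level; the Eif5b value of 223.4 CPM is replicate 2 of Nmd3 siRNA.

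Of the 8 factors of the cap-binding and helicase complex, the scaffold Eif4g1 rose with every siRNA while Eif4e, Eif4b, Eif4a2 and Eif4g2 fell. Eif4g1 had 1000.7, 1086.3 and 1043.4 CPM on ER ribosomes of Nmd3 siRNA cells, against 873.6 and 853.8 CPM in whole-cell RNA. It had 1013.2, 996.7 and 1051.8 CPM with Gnl3 siRNA, against 931.5 and 865.0 CPM, and 1003.9 and 1071.5 CPM with scramble siRNA, against 943.1, 869.1 and 865.5 CPM. The fractions did not overlap, and the log2 fold changes were 0.27, 0.18 and 0.22 (SE 0.05 each; adjusted p 1.17e-05, 0.00174 and 0.000239). Without whole-cell replicate 2 of Gnl3 siRNA the adjusted p for that siRNA was 0.0974, and without ER replicate 3 of scramble siRNA it was 0.0605. Eif4g2, a related scaffold that does not bind Eif4e, had 1204.3, 1146.0 and 1271.9 CPM on ER ribosomes of Nmd3 siRNA cells, against 1378.4 and 1374.9 CPM in whole-cell RNA. The values were 1292.6, 1229.7 and 1252.2 CPM with Gnl3 siRNA, against 1495.6 and 1406.4 CPM, and 1246.1 and 1290.8 CPM with scramble siRNA, against 1457.1, 1422.9 and 1455.1 CPM. It was lower in every ER ribosome-bound library, at -0.19, -0.21 and -0.19 (SE 0.04 each; adjusted p 0.000456, 0.000176 and 0.000539), and Eif4g3 passed with no siRNA (0.07, -0.11 and -0.09).

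Eif4e, the cap-binding protein, had 180.4, 171.6 and 182.9 CPM on ER ribosomes of Nmd3 siRNA cells, against 216.0 and 211.8 CPM in whole-cell RNA. The values were 175.6, 180.6 and 185.8 CPM with Gnl3 siRNA, against 224.2 and 212.5 CPM, and 186.3 and 183.8 CPM with scramble siRNA, against 211.2, 231.3 and 209.0 CPM. It was lower, at -0.26, -0.27 and -0.23 (SE 0.05, 0.05 and 0.06; adjusted p 0.000113, 6.8e-05 and 0.000608) with Nmd3, Gnl3 and scramble siRNA. Eif4b, which stimulates the helicase, had 727.1, 712.1 and 729.5 CPM on ER ribosomes of Nmd3 siRNA cells, against 856.3 and 849.9 CPM in whole-cell RNA. The values were 781.5, 765.5 and 770.4 CPM with Gnl3 siRNA, against 872.2 and 891.7 CPM, and 736.3 and 716.2 CPM with scramble siRNA, against 875.9, 871.3 and 850.6 CPM. The fractions did not overlap, and the changes were -0.24, -0.19 and -0.25 (SE 0.04 each; adjusted p 8.62e-06, 0.000217 and 3.91e-06). The helicase Eif4a2 had 516.3, 457.5 and 527.2 CPM on ER ribosomes of Nmd3 siRNA cells, against 646.0 and 549.7 CPM in whole-cell RNA. The values were 468.5, 498.4 and 506.3 CPM with Gnl3 siRNA, against 547.0 and 550.3 CPM, and 510.4 and 509.2 CPM with scramble siRNA, against 554.6, 565.4 and 564.8 CPM. It was lower, at -0.26, -0.16 and -0.14 (adjusted p 0.000353, 0.0218 and 0.0447), and its calls did not survive the loss of single libraries: whole-cell replicate 1 of Nmd3 siRNA, ER replicate 1 or whole-cell replicate 1 or 2 of Gnl3 siRNA, and each of the 5 of scramble siRNA (adjusted p up to 0.116). Eif4a1 had 1922.1 and 1916.3 CPM on ER ribosomes with scramble siRNA, against 2100.4, 2151.3 and 2108.3 CPM in whole-cell RNA. It passed there (-0.14, adjusted p 0.0108), and -0.06 and -0.11 with Nmd3 and Gnl3 siRNA did not pass. The differences between siRNAs did not pass the interaction test, and the Gnl3 value passed with only the groups compared (-0.12, adjusted p 0.00187). Eif4h, a relative of Eif4b, had 446.0, 425.9 and 425.2 CPM on ER ribosomes with Gnl3 siRNA, against 391.8 and 378.4 CPM in whole-cell RNA, and 401.1 and 391.8 CPM with scramble siRNA, against 370.4, 359.1 and 366.8 CPM. It was higher with Gnl3 siRNA (0.17, adjusted p 0.0037) and scramble siRNA (0.12, adjusted p 0.0375). The scramble call ended with the lysates paired (0.13, adjusted p 0.0567) and without each library in turn, and the Gnl3 call without whole-cell replicate 2 (0.0707).

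The 2 proteins that sequester Eif4e when mTOR is inactive differed. Eif4ebp1 had 464.0, 452.2 and 426.5 CPM on ER ribosomes of Nmd3 siRNA cells, against 334.2 and 365.9 CPM in whole-cell RNA. It had 394.7, 405.9 and 413.2 CPM with Gnl3 siRNA, against 330.7 and 347.2 CPM, and 458.7 and 446.0 CPM with scramble siRNA, against 356.4, 379.7 and 353.0 CPM. It was higher on ER ribosomes with every siRNA, by 0.35, 0.26 and 0.32 (SE 0.05 each; adjusted p 4.44e-07, 9.08e-05 and 2.35e-06). Eif4ebp2 had log2 fold changes of -0.11, -0.08 and -0.06 (SE 0.05 each) and passed with no siRNA, the lowest adjusted p being 0.0502 with Nmd3 siRNA.

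Elongation factor mRNAs were mostly level or higher on ER ribosomes, with Eef2 lower with every siRNA and Eef1d with Nmd3 and Gnl3 siRNA. Eef1a1 had 12059.4, 11388.2 and 11824.6 CPM on ER ribosomes of Nmd3 siRNA cells, against 12244.6 and 11838.4 CPM in whole-cell RNA. The values were 11931.2, 12355.3 and 12204.0 CPM with Gnl3 siRNA, against 11920.7 and 12247.9 CPM, and 12177.1 and 12079.3 CPM with scramble siRNA, against 11928.8, 12462.8 and 11759.9 CPM. The fractions overlapped, and the log2 fold changes were -0.03, 0.01 and 0.01 (SE 0.03 each) with Nmd3, Gnl3 and scramble siRNA. Eif5a, the hypusine-bearing factor that relieves stalled elongation, had 2168.3, 2096.0 and 2072.6 CPM on ER ribosomes of Nmd3 siRNA cells, against 1583.3 and 1757.0 CPM in whole-cell RNA. The values were 2096.7, 2118.7 and 2038.7 CPM with Gnl3 siRNA, against 1794.8 and 1725.3 CPM, and 2237.5 and 2173.2 CPM with scramble siRNA, against 1679.0, 1781.2 and 1691.0 CPM. It was higher by 0.34, 0.24 and 0.36 (SE 0.04 each; adjusted p 3.88e-08, 1.43e-05 and 7.09e-09). Eef1g, a subunit of the eEF1 exchange complex, had 1955.0, 1949.6 and 1873.2 CPM on ER ribosomes of Nmd3 siRNA cells, against 1682.1 and 1752.8 CPM in whole-cell RNA. The values were 1885.4, 1938.0 and 1905.0 CPM with Gnl3 siRNA, against 1717.4 and 1762.2 CPM, and 1974.7 and 1987.0 CPM with scramble siRNA, against 1659.3, 1768.4 and 1670.7 CPM. It was higher in every ER ribosome-bound library, by 0.17, 0.13 and 0.22 (SE 0.04 each; adjusted p 0.000847, 0.00618 and 1.77e-05), and without whole-cell replicate 1 of Gnl3 siRNA its adjusted p for that siRNA was 0.104. Of the other exchange subunits, Eef1b2 had 972.4 and 960.8 CPM on ER ribosomes with scramble siRNA, against 847.6, 893.5 and 833.3 CPM in whole-cell RNA, and was higher there (0.17, adjusted p 0.00136). Eef1d had 365.9, 381.0 and 352.3 CPM with Nmd3 siRNA, against 425.0 and 401.1 CPM, and 371.9, 354.6 and 354.1 CPM with Gnl3 siRNA, against 397.9 and 404.1 CPM. It was lower with Nmd3 siRNA (-0.17, adjusted p 0.00305) and Gnl3 siRNA (-0.15, adjusted p 0.00806), against 0.00 with scramble siRNA. The Eef1d calls ended without whole-cell replicate 1 of Nmd3 siRNA (0.0724) and without whole-cell replicate 2 of Gnl3 siRNA (0.0729). Eef1e1, a scaffold partner of tRNA synthetases, passed with no siRNA.

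Eef2 had 3228.1, 3466.6 and 2956.9 CPM on ER ribosomes of Nmd3 siRNA cells, against 3327.3 and 3655.8 CPM in whole-cell RNA. The values were 3579.1, 3703.6 and 3637.1 CPM with Gnl3 siRNA, against 3822.2 and 4124.7 CPM, and 3481.1 and 3503.6 CPM with scramble siRNA, against 3888.3, 3753.7 and 3852.2 CPM. The fractions overlapped with Nmd3 siRNA. Eef2 was lower, at -0.12, -0.13 and -0.13 (SE 0.05 each; adjusted p 0.049, 0.0362 and 0.0266). With the lysates paired, the adjusted p was 0.0659 with Gnl3 siRNA and 0.0692 with scramble siRNA. The call also ended (adjusted p up to 0.549) without ER replicate 1 or 3 or whole-cell replicate 3 of Nmd3 siRNA, ER replicate 1 or 3 or whole-cell replicate 2 of Gnl3 siRNA, or either ER library or whole-cell replicate 1 of scramble siRNA. Eef2k had 32.2, 32.4 and 34.5 CPM on ER ribosomes of Nmd3 siRNA cells, against 26.5 and 27.5 CPM in whole-cell RNA. It had 33.6, 32.1 and 38.1 CPM with Gnl3 siRNA, against 21.3 and 23.8 CPM, and 36.3 and 31.6 CPM with scramble siRNA, against 24.4, 27.6 and 28.6 CPM. The kinase mRNA was thus higher on ER ribosomes in every library, by 0.29, 0.61 and 0.33 (SE 0.09, 0.10 and 0.09; adjusted p 0.00961, 1.65e-06 and 0.00257). The call ended without whole-cell replicate 1 of Nmd3 siRNA (0.0612) and without ER replicate 2 of scramble siRNA (0.135).

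Of the termination and recycling factors, Abce1 and Etf1 were lower with every siRNA. Abce1, the ATPase that splits terminated ribosomes, had 240.1, 238.8 and 251.1 CPM on ER ribosomes of Nmd3 siRNA cells, against 387.2 and 416.3 CPM in whole-cell RNA. It had 244.5, 234.1 and 238.0 CPM with Gnl3 siRNA, against 404.9 and 392.7 CPM, and 234.5 and 235.4 CPM with scramble siRNA, against 408.6, 406.7 and 396.2 CPM. All 8 ER ribosome-bound libraries fell within a narrow band far below the whole-cell libraries, with log2 fold changes of -0.72, -0.74 and -0.78 (SE 0.05 each; adjusted p 4.62e-15, 2.68e-15 and 1.63e-15). Etf1, which reads the stop codon, had 533.6, 520.0 and 542.9 CPM on ER ribosomes of Nmd3 siRNA cells, against 636.0 and 607.5 CPM in whole-cell RNA. The values were 517.6, 503.8 and 519.4 CPM with Gnl3 siRNA, against 617.6 and 575.1 CPM, and 523.9 and 522.7 CPM with scramble siRNA, against 610.8, 610.8 and 612.0 CPM. It was lower, at -0.22 with each siRNA (SE 0.05; adjusted p 7.43e-05, 0.000138 and 8.74e-05). Gspt1, its GTPase partner, had 370.8, 367.9 and 392.2 CPM on ER ribosomes with Nmd3 siRNA, against 343.9 and 347.1 CPM in whole-cell RNA. It was higher there (0.13, adjusted p 0.0275), and 0.09 and 0.11 with Gnl3 and scramble siRNA did not pass. Without ER replicate 3 (0.105), whole-cell replicate 1 (0.08) or whole-cell replicate 3 (0.0603) the Nmd3 value did not pass either.

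Among the poly(A)-binding proteins and TOP regulators, Tpt1, a TOP mRNA that encodes the tumour protein TCTP, had 1786.7, 1615.2 and 1771.7 CPM on ER ribosomes of Nmd3 siRNA cells, against 1102.6 and 1323.4 CPM in whole-cell RNA. It had 1670.2, 1691.0 and 1716.3 CPM with Gnl3 siRNA, against 1407.1 and 1313.8 CPM, and 1851.4 and 1777.4 CPM with scramble siRNA, against 1322.5, 1413.9 and 1292.2 CPM. It was higher in every ER ribosome-bound library, by 0.51, 0.32 and 0.43 (SE 0.06 each; adjusted p 6.17e-07, 0.000226 and 3.85e-06). Pabpc4, a poly(A)-binding protein, had 572.5, 570.0 and 557.3 CPM on ER ribosomes of Nmd3 siRNA cells, against 473.8 and 504.9 CPM in whole-cell RNA. The values were 553.9, 562.0 and 562.6 CPM with Gnl3 siRNA, against 493.3 and 486.4 CPM, and 578.0 and 581.0 CPM with scramble siRNA, against 495.5, 488.4 and 507.8 CPM. It was higher in every ER ribosome-bound library, by 0.21, 0.19 and 0.22 (SE 0.05, 0.05 and 0.04; adjusted p 0.000158, 0.000537 and 7.63e-05), while its abundant relative Pabpc1 passed with no siRNA (-0.01, -0.06 and -0.01, SE 0.04 each). Larp1, which represses TOP mRNAs when mTOR is inactive, had 377.6, 369.7 and 387.5 CPM on ER ribosomes with Nmd3 siRNA, against 412.7 and 411.8 CPM in whole-cell RNA. It was lower there (-0.12, adjusted p 0.0276), but with the lysates paired the adjusted p was 0.105, and it was 0.0613 to 0.0771 without ER replicate 1 or 2 or whole-cell replicate 1. Larp1 had -0.03 and -0.04 with Gnl3 and scramble siRNA.

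Across the members, the ER ribosome-bound share fell with coding length, as it did across all genes. Pearson's r between the log2 fold change and the log of the coding length was -0.48, -0.49 and -0.52 over the 49 members with Nmd3, Gnl3 and scramble siRNA. It was -0.45, -0.45 and -0.49 over 14276 protein-coding genes. Spearman's rho for the members was -0.48, -0.51 and -0.53. These are descriptions across genes that share the same libraries. Of 16 members with coding sequences under 1000 bases, 12 were higher and 1 lower with scramble siRNA, at a median of 0.20. Among the 4520 coding genes of that length, 2341 were higher and 286 lower, at a median of 0.33. Of 11 members over 2000 bases, 2 were higher and 6 lower, at a median of -0.13. Among the 4267 genes of that length, 335 were higher and 2380 lower, at a median of -0.40.

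**Figure D3:**
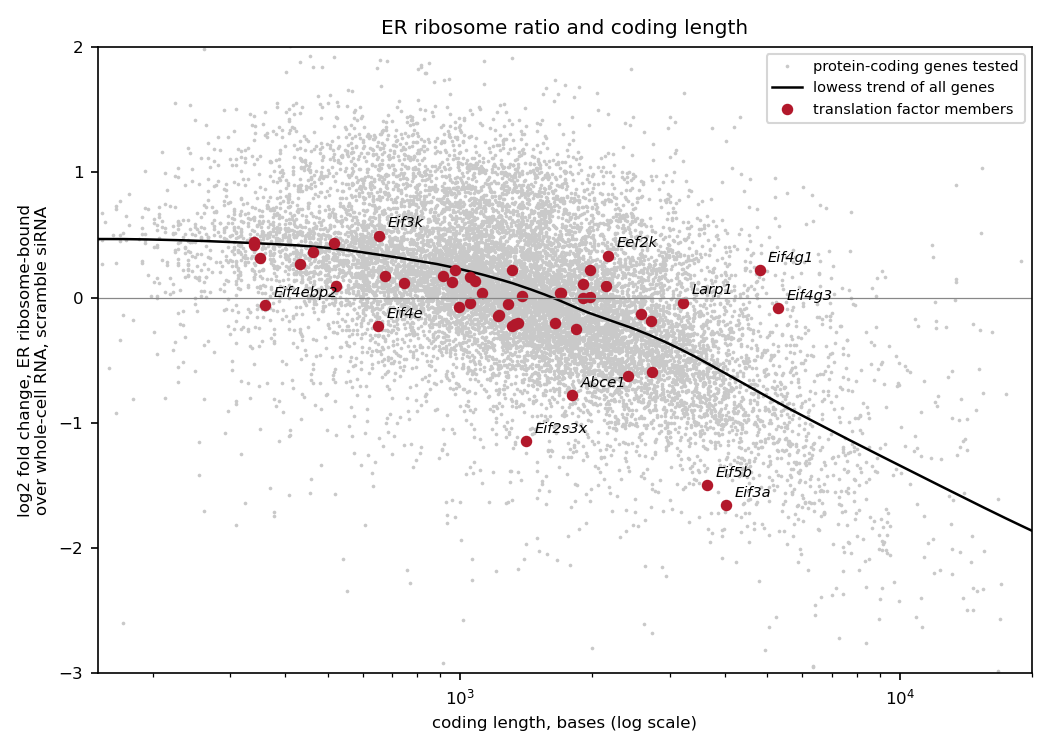
Log2 fold change of ER ribosome-bound over whole-cell RNA with scramble siRNA against coding length in bases (log scale), with members in red, all protein-coding genes tested in grey and their lowess trend as a line; 55 genes lie outside the axes. Eif2s3x, Eif3a, Eif5b and Abce1 lie below the trend and Eif4g1, Eif4g3, Eef2k and Larp1 above it.

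Several members stood far from the level that their length predicted. Eif2s3x, with a coding length of 1416 bases, lay at -1.13, -1.09 and -1.22 relative to the trend of all coding genes with Nmd3, Gnl3 and scramble siRNA, and Abce1, with 1797 bases, lay at -0.66, -0.69 and -0.71. Eif3a (4032 bases) lay at -0.89, -1.0 and -1.05, and Eif5b (3648 bases) at -0.37, -0.76 and -0.98. On the other side, Eif4g1, at 4800 bases one of the longest members, lay 0.96, 0.88 and 0.97 above the trend. Eif4g3 (5286 bases), which itself was not called, lay 0.83, 0.67 and 0.75 above it. The short members Eif1, Eif1b and Eif5a, all called higher, were at the level of genes of their length, between -0.09 and 0.06 from the trend. Tpt1 lay 0.15, -0.01 and 0.04 from it. This correction was chosen after seeing the data. Whether length itself, RNA integrity or ribosome number per mRNA moved with the purification was not tested.

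TOP mRNAs begin with a run of pyrimidines at the transcription start. The 13 members described in the literature as TOP mRNAs did not share a direction on ER ribosomes: 3 were higher and 5 lower with Nmd3 siRNA, 2 and 5 with Gnl3 siRNA, and 4 and 4 with scramble siRNA. Their median log2 fold changes were -0.01, -0.04 and 0.00. The counts are 23.1% higher and 38.5% lower, 15.4% and 38.5%, and 30.8% and 30.8% in that order. Over all genes, 24.5%, 23.3% and 25.1% were higher and 25.6%, 24.9% and 25.3% lower. The 82 cytosolic ribosomal protein mRNAs, which are TOP mRNAs as well and short, had medians of 0.39, 0.30 and 0.45, with 73, 67 and 74 of them higher and 1 lower with each siRNA. After the length trend was taken off, the medians were -0.07, -0.09 and -0.11 for the 49 members and 0.01, -0.04 and 0.04 for the ribosomal proteins.

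The starts of the member genes were searched for such a run in RefSeq windows of build GRCm38.p6, on the sense strand only: at least 8 bases, opening with C and made of C and T alone, from 25 bases before to 50 bases after the annotated start. Windows were matched for 39 of the 49 members. The run was found in 13 of these 39 (33.3%), in 49 of 61 ribosomal protein genes (80.3%) and in 24.3% of all 27025 genes with a window. Of the 8 literature TOP members with a window, 4 had it. The following stretches near annotated starts are shown because they belong to members that moved in opposite directions on ER ribosomes, or not at all. All carry the run within the searched span, printed in capitals within up to 30 bases of the sense strand. Its offset from the annotated start is 31 bases for Eif3a, 13 for Eif3k and 10 for Abce1. The offset is -1 for Eif2s3x, -4 for Eif3f and -5 for Eef1a1. Whether any of these runs opens the mRNA, as in a TOP mRNA, was not tested.
Eif2s3x, chrX:94212631-94212660, minus strand, lower: agcattttCCTTTTCTCTCCgagcaagatg
Eif3a, chr19:60790644-60790670, minus strand, lower: acgtggttCCTTCCTTTCCgtctctgg
Abce1, chr8:79711709-79711738, minus strand, lower: cgtcatcaCTCCCTCCagggcgccgactct
Eif3k, chr7:28981854-28981883, minus strand, higher: tgaaagcgCCTTTCCCTTTgccttccttgt
Eif3f, chr7:108934403-108934432, plus strand, higher with scramble siRNA: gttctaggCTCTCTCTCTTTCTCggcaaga
Eef1a1, chr9:78481708-78481737, minus strand, not called: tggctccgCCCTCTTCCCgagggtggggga

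Members with the run parted in direction as those without it did. With scramble siRNA, 5 of the 13 with the run were higher and 4 lower on ER ribosomes, at a median log2 fold change of 0.04, and 10 of the 26 without it were higher and 7 lower, at a median of -0.01. With Nmd3 siRNA the counts were 5 and 4 of 13, and 8 and 8 of 26. With Gnl3 siRNA they were 3 and 4 of 13, and 7 and 6 of 26. A match is only a description of these letters, since the start used in these cells may differ from the annotated one.

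Other genes of translation, a list of 51 that are not among the 49, had more members lower than higher on ER ribosomes. Of the 49 tested, 11 were higher and 19 lower with Nmd3 siRNA, 9 and 19 with Gnl3 siRNA, and 11 and 19 with scramble siRNA, with 5 higher and 18 lower in all 3. Their medians were -0.03, 0.00 and -0.01. Over all genes, 24.5%, 23.3% and 25.1% were higher and 25.6%, 24.9% and 25.3% lower, with 18.1% higher and 20.4% lower in all 3. The length trend was not taken off for this list. The genes named here were all lower, and the highest log2 fold changes on the list were 0.46, 0.47 and 0.47. Mtor, the kinase above Eif4ebp1 and Larp1, had the widest change with every siRNA, at -1.32, -1.30 and -1.39 (SE 0.07, 0.06 and 0.07). Larp4, which binds poly(A) tails, was lower, at -0.68, -0.73 and -0.74 (SE 0.06 each), as was Rps6kb1, an S6 kinase downstream of mTOR, at -0.72, -0.64 and -0.65 (SE 0.09 each). Among kinases that phosphorylate eIF2, Eif2ak4 (GCN2) was lower, at -0.80, -0.66 and -0.63 (SE 0.09 each), and Eif2ak2 (PKR), at -0.66, -0.34 and -0.47 (SE 0.12, 0.11 and 0.12). Of helicases that help scanning, Dhx29 was lower, at -0.59, -0.68 and -0.69 (SE 0.07 each), and Ddx3x, at -0.64, -0.60 and -0.60 (SE 0.05 each). The copies of 2 members were lower too: Eif2s3y, the Y-linked copy of Eif2s3x, at -0.55, -0.65 and -0.61 (SE 0.07 each), and Eif5a2, the relative of Eif5a, at -0.49, -0.45 and -0.65 (SE 0.13 each).

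The second comparison asks whether Nmd3 or Gnl3 siRNA changed these mRNAs. Few members passed the test. On ER ribosomes, 2 of 49 were lower after Nmd3 siRNA, where 1.17% of all genes were called, 0.652% higher and 0.516% lower. After Gnl3 siRNA 1 was lower, where 2.68% of all genes were called, 1.51% higher and 1.17% lower. In whole-cell RNA no member was called after Nmd3 siRNA, where 0.166% of all genes were called, 0.0629% higher and 0.103% lower. None was called there after Gnl3 siRNA, where 0.812% of all genes were called, 0.515% higher and 0.297% lower. At an unadjusted p under 0.05 there were 6 and 8 of the 49 members on ER ribosomes, and 9 and 2 in whole-cell RNA, for Nmd3 and Gnl3 siRNA. Over all genes there were 2050 and 2519 of 17632 on ER ribosomes, and 1694 and 1486 of 17490 in whole-cell RNA. DESeq2 called 1 and 0 members on ER ribosomes. The comparisons on ER ribosomes share their 2 scramble libraries, and those in whole-cell RNA share 3.

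Eif4ebp2 had 329.8, 305.8 and 325.2 CPM on ER ribosomes of Nmd3 siRNA cells, against 361.8 and 369.1 CPM in scramble siRNA cells. The groups did not overlap, and the log2 fold change was -0.19 (SE 0.04, adjusted p 0.0276). Members that were not called also showed no overlap, such as Eif1, Eif5a and Pabpc4 with Nmd3 and with Gnl3 siRNA. The share of all genes without overlap was not counted, so this trait does not set the called members apart. In Gnl3 siRNA cells it had 353.7, 343.3 and 351.2 CPM, also below both scramble libraries (log2 fold change -0.06, adjusted p 0.559). In whole-cell RNA it had 338.8 and 354.6 CPM with Nmd3 siRNA, against 375.0, 376.8 and 391.5 CPM with scramble siRNA, a log2 fold change of -0.13 that did not pass (adjusted p 0.427). The call on ER ribosomes ended with only the groups compared (adjusted p 0.118) and without ER replicate 2 (0.248) or 3 (0.409) of scramble siRNA.

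Larp1 had 377.6, 369.7 and 387.5 CPM on ER ribosomes of Nmd3 siRNA cells, against 431.7 and 422.0 CPM in scramble siRNA cells. Its log2 fold change was -0.17 (SE 0.04, adjusted p 0.0381), with no overlap of the groups. In Gnl3 siRNA cells it had 401.1, 386.9 and 402.2 CPM, also below both scramble libraries. The log2 fold change there was -0.11 and did not pass (adjusted p 0.213). The Nmd3 call ended with DESeq2 (adjusted p 0.0622), with only the groups compared (0.138) and without ER replicate 2 (0.486) or 3 (0.282) of scramble siRNA or ER replicate 1 of Nmd3 siRNA (0.07). A block for the replicate number left only 1 of the Nmd3 calls of Eif4ebp2 and Larp1.

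Eif4ebp1 had 394.7, 405.9 and 413.2 CPM on ER ribosomes of Gnl3 siRNA cells, against 458.7 and 446.0 CPM in scramble siRNA cells, a log2 fold change of -0.16 (SE 0.04, adjusted p 0.0434). The groups did not overlap. The 3 libraries of Nmd3 siRNA, at 464.0, 452.2 and 426.5 CPM, lay around the scramble values (-0.01, adjusted p 0.954). The Gnl3 call ended with DESeq2 (adjusted p 0.0993), with library totals in place of TMM (0.0612) and with a block for the replicate number. It also ended without each of the 5 libraries in turn (0.108 to 0.479).

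**Figure D4:**
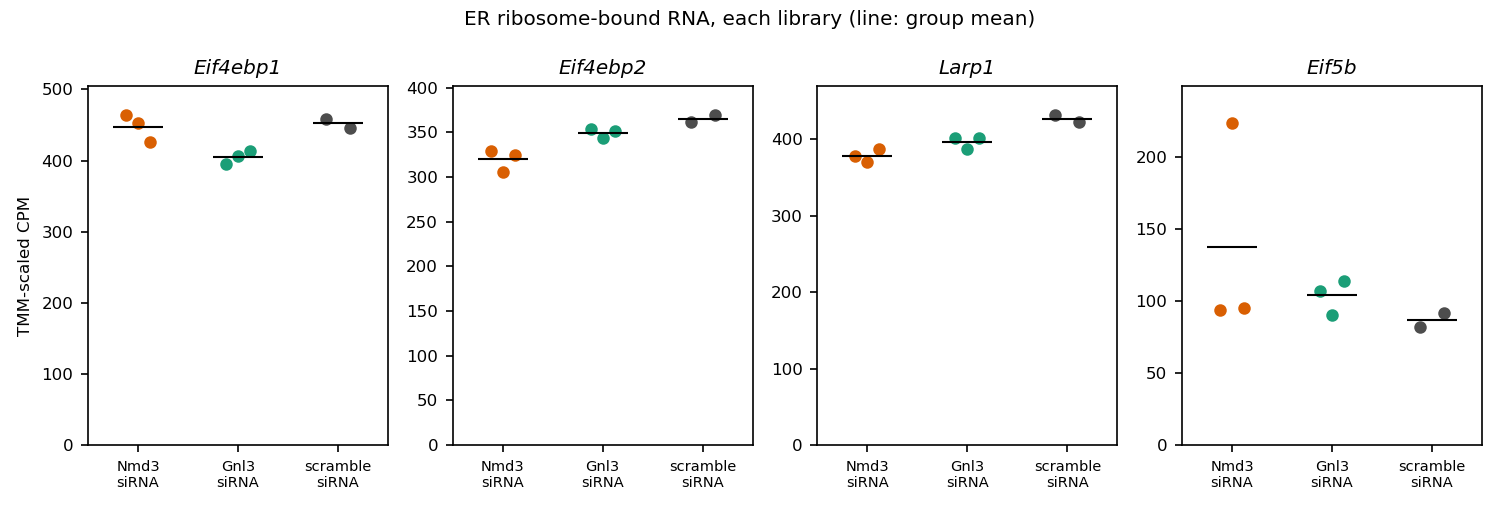
TMM-scaled CPM of Eif4ebp1, Eif4ebp2, Larp1 and Eif5b in each ER ribosome-bound library of Nmd3, Gnl3 and scramble siRNA; lines are group means. Eif4ebp2 and Larp1 are lower in all 3 Nmd3 siRNA libraries, and also in all 3 Gnl3 siRNA libraries, than in both scramble libraries. Eif4ebp1 is lower in all 3 Gnl3 siRNA libraries, and 1 Nmd3 siRNA library of Eif5b stands apart at 223.4 CPM.

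The remaining members differed little. On ER ribosomes the members' median log2 fold change was -0.01 after Nmd3 siRNA and -0.02 after Gnl3 siRNA, against 0.00 and -0.00 over all genes. The widest value after Nmd3 siRNA was that of Eif5b, 0.67 (SE 0.45, adjusted p 0.662), with replicate 2 far above the other libraries. Eif3a (327.6 CPM, against 200.8 and 205.7 CPM), Eif3c (568.9 CPM, against 470.2 and 493.6 CPM) and Gnl3 itself (264.9 CPM, against 162.9 and 177.8 CPM) were also highest in that library. Without it, Eef2 was lower (-0.17, adjusted p 0.00102) and Eif2s2 higher (0.13, adjusted p 0.0429) on ER ribosomes of Nmd3 siRNA cells, and 4 members were called, where 366 of 17549 genes were. Without ER replicate 1 of Nmd3 siRNA, Eif3c was called higher (0.27, adjusted p 0.0277), where 239 of 17549 genes were called. In whole-cell RNA of Nmd3 siRNA cells, the 2 libraries differed. Without replicate 3, so that replicate 1 stood alone and was assumed to vary like the other groups, 9 members and 1024 of 17957 genes were called, against 29 of 17490 genes with both libraries. Among the 9 were Eif3d (-0.33), Tpt1 (-0.27), Eif3l (-0.26) and Eif3m (0.26). Without replicate 1, no member and 8 of 18081 genes were called. Mitochondrial RNA was 1.15% of counts in replicate 1 and 1.86% to 2.03% in the other 6 whole-cell libraries, and its part in these values was not tested.

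The third comparison, the interaction, asks whether an siRNA changed the ratio of ER ribosome-bound to whole-cell RNA relative to scramble siRNA. No member and no gene of 18271 was called for either siRNA, so 0.0% of all genes were called. At an unadjusted p under 0.05 there were 4 members and 1078 genes for Nmd3 siRNA, and 2 members and 649 genes for Gnl3 siRNA. DESeq2 called no member for either siRNA. The widest differences were Eif5b at 0.65 (SE 0.46) for Nmd3 siRNA and Eef2k at 0.27 (SE 0.13) for Gnl3 siRNA. Without whole-cell replicate 3 of Nmd3 siRNA, which leaves 1 whole-cell library of that siRNA, 304 of 19015 genes and 4 members passed: Eif3d (0.39), Eif3l (0.31), Eif4a1 (0.23) and Eif2s2 (0.23). Among the other genes of translation, Denr, a reinitiation and recycling factor, was the only one of 50 tested on ER ribosomes and 49 in whole-cell RNA that was called after an siRNA. It was lower on ER ribosomes of Gnl3 siRNA cells (-0.21, SE 0.05, adjusted p 0.0137). The ribosomal protein mRNAs had 8 of 82 (9.76%) called lower on ER ribosomes after Gnl3 siRNA and 3 (3.66%) after Nmd3 siRNA. Over all genes, 1.17% and 0.516% were called lower there. The ribosomal protein medians were -0.10 and -0.07, while the members' medians were -0.02 and -0.01. How the calls of Denr and of the ribosomal protein mRNAs depend on the settings is not given here.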

How the data were processed

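Each library came as a table of raw counts per gene, deposited by the authors, without normalization. Per the submitters' processing notes, STAR 2.7.9a, HTSeq 0.11.2, DESeq2 and the GRCm39 build were used; the annotation release and the strand setting are not given in the sources used here. The labels name a directional kit, polyA selection and paired-end reads. Reads without a feature were 46.6% to 48.3% of each table's total, reads without a unique place 5.11% to 10.2% and ambiguous reads 0.357% to 0.568%; these 5 HTSeq lines were left out. Gene counts were 15198736 to 29904256 a library.

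Of 55416 gene IDs, 52083 were named from GENCODE M21, which also gave lengths. Genes passing edgeR's filterByExpr were scaled by TMM and tested with edgeR 4.0.16 (R 4.3.3) by robust quasi-likelihood fits and Benjamini-Hochberg adjustment over all genes tested, with calls at an adjusted p under 0.05 (written "passed" or "called"; "higher", "lower", "rose" and "fell" of a member mean a call). The SE of a log2 fold change was taken as its size over the root of F. A fit of 15 libraries (18271 genes) gave ER ribosome-bound against whole-cell RNA for each siRNA and the interactions; fits of the 8 ER ribosome-bound libraries (17632 genes) and the 7 whole-cell libraries (17490 genes) gave the siRNA comparisons. All 49 members passed each filter. The submitters' 2 exclusions were kept. The length trend was a lowess fit with a share of 0.3. The procedure was tested on simulated data with planted 2-fold changes only, so recovery of the smaller changes reported for most members was not tested.

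Per the labels, ER ribosome-bound and whole-cell RNA of one replicate number came from 1 lysate, and this pairs them; the deviations of such pairs from their group means correlated at -0.03 to 0.02. Numbers shared across siRNAs are not stated to mark a shared day, and those libraries correlated at -0.02 to 0.04. The main fits have no replicate block. Alternatives were all 17 libraries, DESeq2 1.42.0, other scaling, no filter on low counts, only the groups compared, a replicate block, and each replicate left out in turn.

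The members and the other gene lists were chosen with earlier results of these data known. Every member is accounted for, with values by library for members called, in the siRNA of the call, and for the widest change in each role; other genes of translation are given as counts and, in each comparison, up to 6 of the widest calls. No replicate pair agreed within sampling noise: chi-square per gene was 2.1 or more in every pair.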

Additional observations from a re-analysis of the deposited data

Results flagged for a closer look

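In the 2 whole-cell libraries that the submitters left out, 10 values of members stood more than 2-fold above the highest scramble whole-cell library. This rule was applied to the members only. The share of all genes beyond it in these libraries was not counted, so the values are not shown to be particular to the members. In replicate 3 of Gnl3 siRNA, Pabpc1 had 5786.3 CPM, against 2691.7 CPM in the highest scramble library. In replicate 2 of Nmd3 siRNA there were 9 such members. Eif1 had 1092.0 CPM against 441.7, Eif1ax 476.7 against 200.9, Eif1b 56.0 against 24.9, Eif3f 817.6 against 308.5, Eif3g 468.8 against 210.0, Eif3k 729.7 against 295.7 and Eif3m 632.8 against 255.1 CPM. Eef1b2 and Eef1d had 3226.6 against 893.5 CPM and 1135.6 against 382.2 CPM. Mitochondrial RNA was 0.769% of counts in that library and 6.14% in replicate 3 of Gnl3 siRNA, against 1.15% to 2.03% in the 7 other whole-cell libraries; its part in these values was not tested. Other members in that library were not high, such as Eif3a at 534.6 CPM against 668.1 in the highest scramble library, Eif3b at 588.4 against 620.6 and Eif3c at 615.0 against 674.6 CPM.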

How the results depend on the processing

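With all 17 libraries, members called on ER ribosomes against whole-cell RNA numbered 7 (Nmd3 siRNA), 7 (Gnl3) and 6 (scramble), of 2819, 4540 and 2353 genes, and 0 genes were called in whole-cell RNA for either siRNA. Signs of calls turned with Nmd3 siRNA for Eif1 (-0.26), Eif1ax (-0.30), Eif1b (-0.14), Eif2b2 (-0.09), Eif3g (-0.42), Eif3i (-0.20), Eif3k (-0.18), Eif3l (-0.08), Eef1g (-0.19), Eef2 (0.11), Tpt1 (-0.02) and Larp1 (0.02), and with Gnl3 siRNA for Eef2 (0.11). With all 17 and a replicate block, members numbered 3, 5 and 3, of 1320, 2975 and 386 genes, again with 0 genes in whole-cell RNA, and the turned values were Eif1 -0.08, Eif1ax -0.12, Eif1b -0.01, Eif2b2 -0.05, Eif3g -0.27, Eif3i -0.09, Eif3k -0.02, Eif3l -0.04, Eef1g -0.12, Eef2 0.15 and Larp1 0.03 with Nmd3 siRNA and Eef2 0.17 with Gnl3 siRNA. The cause was not tested. With the length trend taken off, chosen after seeing the data, signs turned by construction for short or long members: with Nmd3 siRNA Eef2 0.13, Eif1 -0.01, Eif1ax -0.03, Eif1b -0.01, Eif2b2 -0.02, Eif3g -0.07, Eif4ebp1 -0.04, Eif4g2 0.09, Eif5a -0.03 and Larp1 0.27; with Gnl3 siRNA Eef2 0.11, Eif1 -0.03, Eif1ax -0.07, Eif3i -0.07, Eif4ebp1 -0.09, Eif4g2 0.06, Eif4h -0.11, Eif5a -0.09 and Tpt1 -0.01; with scramble siRNA Eef1b2 -0.16, Eef2 0.14, Eif1 -0.02, Eif1ax -0.15, Eif2b1 -0.09, Eif2b2 -0.05, Eif3f -0.07, Eif3g -0.11, Eif3i -0.01, Eif4ebp1 -0.11, Eif4g2 0.12, Eif4h -0.19 and Eif5a -0.05. On ER ribosomes, Nmd3 siRNA gave 1 member with DESeq2, 4 without a filter, 1 with the replicate block and 0 with only the groups compared, and 407, 126 and 86 genes in the last 3. Gnl3 siRNA gave 0 members with DESeq2, library totals or the replicate block and 6 with only the groups compared, and 258 and 1312 genes with the block and with only the groups. In whole-cell RNA, Nmd3 siRNA gave 115 genes without a filter and 17 with only the groups compared, and Gnl3 siRNA 272 with only the groups. The interaction for Nmd3 siRNA gave 2 genes with DESeq2, 1 with library totals, 14 without a filter and 1 with the block, and for Gnl3 siRNA 1 without a filter and 1 with only the groups compared. With each replicate left out in turn, ER against whole-cell RNA gave 23 to 35 members and 7853 to 8822 genes (Nmd3), 22 to 27 and 7057 to 8275 (Gnl3), and 24 to 29 and 7457 to 8753 (scramble). The calls held under every omission for 20 of 33 members with Nmd3 siRNA, 21 of 28 with Gnl3 siRNA and 22 of 33 with scramble siRNA. The siRNA comparisons gave 0 to 4 members and 23 to 366 genes (Nmd3, ER), 0 and 70 to 299 (Gnl3, ER), 0 to 9 and 8 to 1024 (Nmd3, whole-cell), and 0 and 17 to 66 (Gnl3, whole-cell). The interactions gave 0 to 4 members and 0 to 304 genes for Nmd3 siRNA and 0 genes for Gnl3 siRNA. Calls lost or gained under the replicate block in the first comparison stand beside the genes, and the block changed no other call there. Groups hold 2 or 3 libraries, and a value that did not pass is not shown to be unchanged.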
